A study of Homo sapiens with 12 samples.

Results

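The genes described here are 32 genes of the G2 phase and of mitosis, measured by RNA-seq after silencing of CBX7 in a kidney and a bladder cancer line. They were chosen by gene symbol from a fixed list, drawn up with earlier results of these data known. All 32 were found in both expression tables, among 58735 genes listed for 786-O and 29890 listed for 5637. They lie on 12 chromosomes. By role they divide into 6 genes that switch on CDK1, 7 mitotic kinases and spindle checkpoint kinases, 3 genes of the anaphase-promoting complex and its targets, 5 kinesin motors, 6 spindle and midzone proteins, and 5 chromosome and centromere proteins.

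A cell enters mitosis when CDK1, bound to cyclin A or cyclin B, is freed of inhibitory phosphates by the CDC25 phosphatases. Polo-like and aurora kinases then build the spindle, kinesins move chromosomes along it, and the BUB and TTK kinases hold the cell until every kinetochore is attached. CDC20 then activates the anaphase-promoting complex, which destroys cyclin B and securin. Messages of most of these genes are made late in the cell cycle, from promoters read by the MuvB complex with B-MYB and FOXM1, so they are low in resting cells and are widely read as markers of proliferation. CBX7 belongs to the chromobox proteins, which tether Polycomb repressive complex 1 to methylated histones at genes that are kept silent. The gene PRC1 in the list is another thing, protein regulator of cytokinesis 1, a bundler of midzone microtubules.

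The study silenced CBX7 with a short hairpin RNA (shCBX7) and set those cells against cells with a control hairpin (sh control), in 3 libraries per group and 12 in all. The groups were 786-O shCBX7, 786-O sh control, 5637 shCBX7 and 5637 sh control. The 786-O line comes from a clear cell renal carcinoma and 5637 from a bladder carcinoma, and both were grown in RPMI-1640 with fetal bovine serum, with no other treatment in the labels. The hairpin sequences, the time after transduction and whether the cells were pools or clones do not stand in the labels. For 2 of the 3 controls of 5637 the title shows a different number, though the cell line label is 5637, and the tables call the arms si and not sh in their column names. Whether replicates were separate cultures is not stated. The p-values below therefore reflect the scatter of these libraries alone, and that scatter may be technical. Expression was deposited as FPKM, which is corrected for gene length and library size, and each line has its own, separately normalized table. Reads recovered from those values came to 16384151 to 18868874 per library in 786-O and 18044030 to 29681194 in 5637. The tested members rested on 122 (NUSAP1) to 9296 (CDC20) reads in a library of 786-O. In 5637 the 29 tested members with whole reads rested on 60 (PRC1) to 55560 (TOP2A).

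Promoters of this class carry CHR elements, which MuvB binds and which read TTTGAA or, in other genes, TTTAAA. They also carry CCAAT boxes, which NF-Y binds. The set of RefSeq promoters used here (GRCh38.p14) listed a promoter for 27 of the 32 genes. It lacked AURKA, BIRC5, TPX2, TTK and UBE2C. In each of the 27, 300 bases, from 250 before to 50 after the start, were searched for these letters on both strands. Only the first listed window of a gene was counted, and 22 of the 27 members had 1 window. In CDC25B and CDC25C the first window held no match, while other listed windows of both genes did. A CHR match was found in 21 of the 27 (77.8%), against 24.3% of 27305 genes with a listed promoter, and CCAAT in 21 (77.8%), against 35.7%. Both kinds of match were found in 17 (63.0%), against 9.49% of all genes. In 1 member's window a CCAAT match overlapped a CHR match. A match is only a stretch of letters and not a shown binding site. The 250 bases before the start are given here for 6 genes. Cyclins B1 and B2, PLK1, CDC20 and TOP2A were among the 8 members with the lowest share of control left in 786-O. The rest of those 8 were BUB1, KIF20A and NUSAP1. In the searched windows BUB1 held CCAAT and no CHR match, and KIF20A and NUSAP1 held both. CENPF, the last gene shown, was the member called higher in 5637. Capitals mark CHR and CCAAT matches, also where they read on the other strand, and each run is written 5′ to 3′ on the strand of the gene.
CCNB1, plus strand, chr5:69166900-69167149: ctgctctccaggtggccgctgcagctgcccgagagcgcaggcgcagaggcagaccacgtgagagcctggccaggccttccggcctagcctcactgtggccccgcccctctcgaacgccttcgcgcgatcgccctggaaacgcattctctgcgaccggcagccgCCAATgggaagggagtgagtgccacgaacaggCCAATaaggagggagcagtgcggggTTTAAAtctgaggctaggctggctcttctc
CCNB2, plus strand, chr15:59104896-59105145: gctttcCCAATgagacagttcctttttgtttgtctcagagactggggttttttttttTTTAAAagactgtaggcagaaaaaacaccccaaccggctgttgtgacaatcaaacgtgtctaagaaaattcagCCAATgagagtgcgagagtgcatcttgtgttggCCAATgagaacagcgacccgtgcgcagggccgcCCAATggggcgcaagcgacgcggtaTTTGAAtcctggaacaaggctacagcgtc
PLK1, plus strand, chr16:23678639-23678888: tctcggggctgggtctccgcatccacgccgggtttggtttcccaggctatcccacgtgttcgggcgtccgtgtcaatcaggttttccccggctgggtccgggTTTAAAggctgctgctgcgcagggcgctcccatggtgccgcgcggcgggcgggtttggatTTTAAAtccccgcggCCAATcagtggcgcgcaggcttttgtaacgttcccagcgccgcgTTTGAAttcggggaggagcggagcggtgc
CDC20, plus strand, chr1:43358731-43358980: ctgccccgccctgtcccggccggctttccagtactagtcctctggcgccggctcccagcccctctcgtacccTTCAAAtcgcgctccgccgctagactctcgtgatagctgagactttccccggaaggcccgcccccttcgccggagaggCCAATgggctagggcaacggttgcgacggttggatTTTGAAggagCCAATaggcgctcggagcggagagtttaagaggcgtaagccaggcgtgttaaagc
TOP2A, minus strand, chr17:40417897-40418146: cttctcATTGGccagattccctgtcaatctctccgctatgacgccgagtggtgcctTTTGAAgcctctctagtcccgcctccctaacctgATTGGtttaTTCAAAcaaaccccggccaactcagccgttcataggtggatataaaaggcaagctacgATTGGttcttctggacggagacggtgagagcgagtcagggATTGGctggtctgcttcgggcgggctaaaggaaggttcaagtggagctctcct
CENPF, plus strand, chr1:214602945-214603194: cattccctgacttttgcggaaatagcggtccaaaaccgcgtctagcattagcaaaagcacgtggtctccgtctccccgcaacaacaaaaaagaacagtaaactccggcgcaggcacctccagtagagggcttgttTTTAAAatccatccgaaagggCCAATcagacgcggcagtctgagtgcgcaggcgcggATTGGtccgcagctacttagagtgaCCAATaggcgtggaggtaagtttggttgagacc

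The CCNB2 and PLK1 runs hold TTTGAA with its first base 29 bases before the start, and the CCNB1 run holds TTTAAA 30 bases before it. CCNB2 has CCAAT at 244, 120, 87 and 54 bases before the start, and CCNB1 at 87 and 55. In CDC20 the nearest TTTGAA lies 65 bases before the start and the nearest CCAAT 55 bases before it, and in TOP2A the nearest reversed CCAAT lies 53 bases before the start. CENPF holds the same letters, with TTTAAA 115 bases before the start and CCAAT on one strand or the other at 94, 58 and 33. In 5637 the letters stood in CCNB2, CDC20 and TOP2A, which were called lower, and in CENPF, which was called higher. CCNB1 and PLK1 were not called there. In 786-O CENPF was not called (84.1% of control), and the other genes shown were called lower. The genes shown were picked by their changes, and whether the letters go with the direction of change was not tested.

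CBX7 itself was lower in every shCBX7 library of both lines than in any control library. In 786-O it had 1.01, 0.892 and 1.07 FPKM in the shCBX7 libraries, against 1.63, 1.75 and 1.49 FPKM in the control libraries. In 5637 it had 1.86, 1.80 and 1.97 FPKM in the shCBX7 libraries, against 2.19, 2.17 and 2.42 FPKM in the control libraries. The share of the control mean that was left was therefore smaller in 786-O (61.0%) than in 5637 (83.3%). On the log2(FPKM + 1) scale, which understates the change of low genes and is used for every log2 change below, CBX7 changed by -0.40 (SE 0.076, limma adjusted p = 0.00364) in 786-O and by -0.18 (SE 0.046, limma adjusted p = 0.0188) in 5637. The exact two-sided permutation p was 0.1 in each line, the smallest that 3 against 3 libraries allow. In 5637 the call was lost without shCBX7 library 2 (limma adjusted p = 0.0608) or control library 3 (limma adjusted p = 0.0586).

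In 786-O, 25 of the 31 mitotic genes tested were lower in shCBX7 cells and 0 were higher. Over all 13220 genes tested there, 26.2% were called lower and 24.7% higher, or 51.0% in either direction (limma, adjusted p under 0.05). The median log2 change was -0.40 over the members and -0.01 over all genes tested. In 5637, 17 of 31 were lower and 1 was higher, where 20.2% of 12689 genes were called lower and 24.4% higher, or 44.5% in either direction. Median changes in 5637 were -0.10 over the members and 0.01 over all genes. In whole cultures, fewer cells in G2 or mitosis and less message per such cell cannot be told apart. Summed over the 32 genes, FPKM came to 1105 ± 6.11 in shCBX7 and 1591 ± 9.17 in control libraries of 786-O (SD, n = 3 each), which left 69.4%. In 5637 the sum was 1411 ± 6.56 in shCBX7 and 1544 ± 7.94 in control libraries (SD, n = 3 each), which left 91.4%. Every shCBX7 library lay below every control library in 24 members in 786-O (31.0% of all genes) and 18 in 5637 (25.7%), and above in 0 in 786-O (29.2%) and 1 in 5637 (30.7%). The number of genes tested was 31 in each line because PRC1 in 786-O and NUSAP1 in 5637 were under the minimum mean of 0.5 FPKM.

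**Figure D1:**
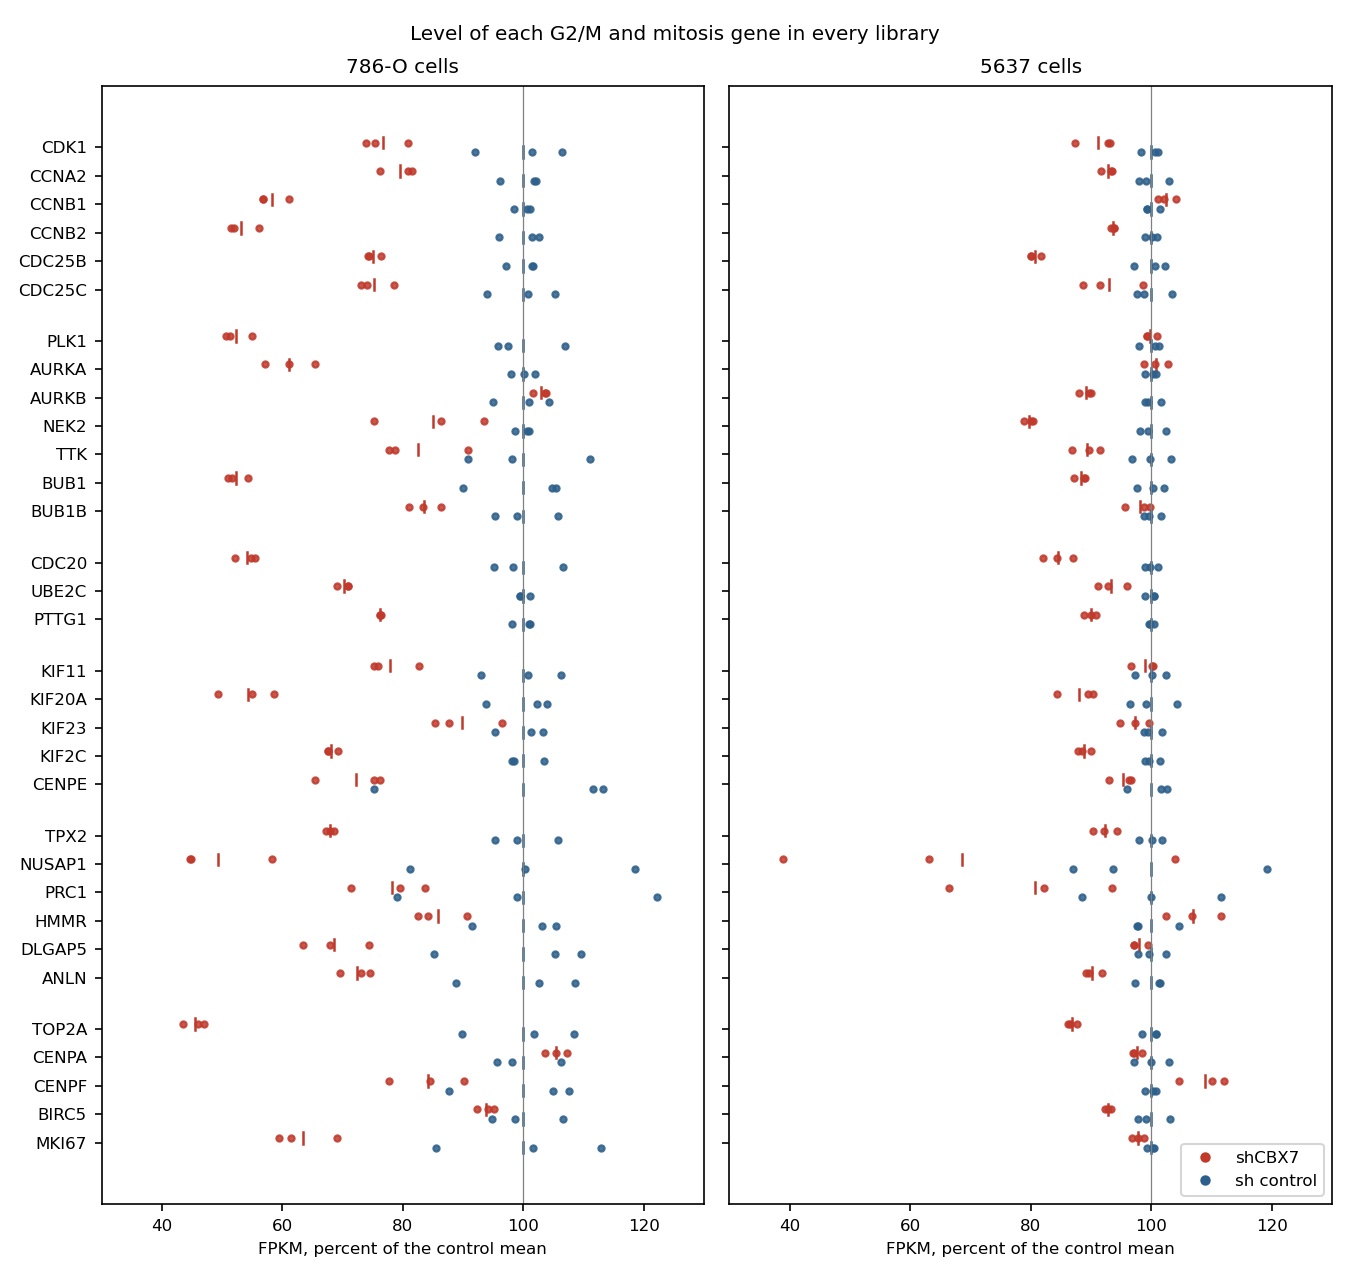
FPKM of each of the 32 genes in every library as a percent of the mean of the control libraries of its line (786-O left, 5637 right), with shCBX7 libraries in red and control libraries in blue, short bars for group means and gaps between the roles. In 786-O the shCBX7 points of 24 genes all lie left of the control points, down to TOP2A at 45.5% on average, and in 5637 those of 18 genes do, at a shorter distance.

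Of the genes that switch on CDK1, 6 of 6 were lower in 786-O and 4 of 6 in 5637. Cyclin B2 (CCNB2) had 24.1, 26.1 and 23.9 FPKM in 786-O shCBX7 libraries, against 47.6, 44.5 and 47.1 FPKM in control libraries. Cyclin B1 (CCNB1), the main partner of CDK1 at mitotic entry, had 42.5, 39.5 and 39.5 FPKM in 786-O shCBX7 libraries, against 70.0, 70.3 and 68.5 FPKM in control libraries. In both cyclins the arms stood well apart in 786-O, with 53.2% of the control mean left for CCNB2 and 58.2% for CCNB1. Their log2 changes were -0.88 (SE 0.052, limma adjusted p = 1.35e-05) for CCNB2 and -0.77 (SE 0.046, limma adjusted p = 1.41e-05) for CCNB1. In 5637, CCNB1 had 45.9, 46.8 and 45.4 FPKM in shCBX7 libraries, against 45.6, 44.6 and 44.6 FPKM in control libraries. Those arms overlapped, and CCNB1 was not called there (log2 change 0.03, limma adjusted p = 0.215), while CCNB2 fell to 93.7% of control (limma adjusted p = 0.00559).

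CDC25B, a phosphatase that starts CDK1 activation in G2, fell in both lines. It had 31.4, 30.6 and 30.5 FPKM in shCBX7 and 41.7, 39.9 and 41.8 FPKM in control libraries of 786-O. In 5637 it had 101, 99.0 and 99.0 FPKM in shCBX7 libraries, against 120, 126 and 124 FPKM in control libraries. The arms did not overlap in either line, and the share left was 75.0% in 786-O and 80.7% in 5637 (limma adjusted p = 0.000189 and 0.000159). Its relative CDC25C, the phosphatase that keeps CDK1 active at mitotic entry, was called in 786-O (75.2% left, limma adjusted p = 0.00155) and not in 5637 (92.9%, limma adjusted p = 0.114). CDK1 and cyclin A2 (CCNA2), a partner of CDK1 in G2, fell in both lines. In 786-O 76.7% of CDK1 and 79.5% of CCNA2 were left, and in 5637 91.1% and 92.8%.

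Of the 7 mitotic and checkpoint kinases, 6 were lower in 786-O and 4 in 5637. PLK1, the polo-like kinase that drives centrosome maturation and mitotic entry, had 22.4, 22.1 and 23.9 FPKM in 786-O shCBX7 libraries, against 46.5, 42.4 and 41.7 FPKM in control libraries. Levels in 5637 were 15.3, 15.0 and 15.0 FPKM in shCBX7 libraries, against 15.3, 15.2 and 14.9 FPKM in control libraries. PLK1 thus stood at 52.3% of control in 786-O, with no overlap (log2 change -0.90, SE 0.058, limma adjusted p = 1.93e-05), and at 99.9% in 5637, with the arms mixed (log2 change -0.0017, SE 0.022, limma adjusted p = 0.956). Aurora kinase A (AURKA), which acts at spindle poles, had 37.5, 35.0 and 32.7 FPKM in 786-O shCBX7 libraries, against 56.2, 58.4 and 57.4 FPKM in control libraries. The 5637 shCBX7 libraries had 49.3, 51.3 and 50.2 FPKM, against 50.27, 49.39 and 50.04 FPKM in control libraries. AURKA fell to 61.1% of control in 786-O (limma adjusted p = 5.59e-05), while the 5637 arms overlapped and were not called apart (limma adjusted p = 0.713).

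Aurora kinase B (AURKB), the kinase of the chromosomal passenger complex that corrects faulty kinetochore attachments, was called in the other line. It had 56.3, 55.1 and 56.2 FPKM in 786-O shCBX7 libraries, against 56.5, 54.7 and 51.5 FPKM in control libraries, and these arms overlapped. In 5637 it had 37.3, 37.4 and 36.5 FPKM in shCBX7 libraries, against 41.1, 41.3 and 42.2 FPKM in control libraries, with no overlap and 89.2% left. The log2 change was 0.04 (SE 0.048, limma adjusted p = 0.486) in 786-O and -0.16 (SE 0.020, limma adjusted p = 0.000933) in 5637. NEK2, a kinase that separates centrosomes, had the lowest share left among the tested members in 5637, with 23.3, 23.4 and 23.0 FPKM in shCBX7 and 29.9, 29.0 and 28.6 FPKM in control libraries. That left 79.8% of NEK2 in 5637 with the arms far apart (log2 change -0.31, SE 0.022, limma adjusted p = 0.000119). In 786-O NEK2 had 16.1, 18.4 and 20.0 FPKM in shCBX7 libraries, against 21.1, 21.5 and 21.6 FPKM in control libraries, and its call (limma adjusted p = 0.0375) was lost under 8 of the other settings tried, with an adjusted p of up to 0.0966.

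All 3 checkpoint kinases were called lower in 786-O, by unequal amounts. BUB1, which recruits the checkpoint to kinetochores, had 13.3, 12.6 and 12.4 FPKM in shCBX7 libraries, against 21.9, 25.7 and 25.5 FPKM in control libraries, or 52.3% of control (limma adjusted p = 4.72e-05). BUB1B, which encodes the checkpoint protein BubR1, was left at 83.6% (limma adjusted p = 0.00755). TTK, the kinase at the top of the checkpoint, was left at 82.4% with overlapping arms, and its call (limma adjusted p = 0.0402) was lost under 7 other settings, with an adjusted p of up to 0.121. In 5637 BUB1 (88.3% left, limma adjusted p = 0.00124) and TTK (89.3% left, limma adjusted p = 0.00616) were lower and BUB1B (98.1%, limma adjusted p = 0.381) was not called. BUB1B shares 10.21% of its exonic bases with the readthrough gene BUB1B-PAK6 on the same strand, which was listed at 67.6 to 69.3 FPKM in shCBX7 and 76.7 to 77.0 FPKM in control libraries of 5637, and at 0 in 786-O.

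The 3 genes of the anaphase-promoting complex and its targets were lower in both lines, each with arms that did not overlap. CDC20, the activator of the complex, was the most abundant member in 786-O controls, with 142, 134 and 141 FPKM in shCBX7 libraries, against 273, 244 and 252 FPKM in control libraries. CDC20 in 5637 had 49.9, 48.3 and 46.9 FPKM in shCBX7 libraries, against 56.7, 57.9 and 57.2 FPKM in control libraries. This left 54.2% of CDC20 in 786-O (log2 change -0.88, SE 0.055, limma adjusted p = 1.68e-05) and 84.5% in 5637 (log2 change -0.24, SE 0.025, limma adjusted p = 0.000492). UBE2C, the ubiquitin-conjugating enzyme of the complex, was left at 70.3% in 786-O and 93.4% in 5637. PTTG1, which encodes securin, the guard of separase, was left at 76.3% in 786-O and 89.9% in 5637. PTTG1 has close copies elsewhere in the genome, so its reads are less certain.

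Among the kinesins, 3 of 5 were lower in 786-O and 2 of 5 in 5637. KIF20A, a motor of the central spindle, had 19.4, 18.1 and 16.3 FPKM in 786-O shCBX7 libraries, against 30.9, 34.3 and 33.7 FPKM in control libraries. KIF20A in 5637 had 22.9, 23.2 and 21.6 FPKM in shCBX7 libraries, against 24.8, 25.4 and 26.7 FPKM in control libraries. Both lines kept the arms of KIF20A apart, with 54.4% left in 786-O (limma adjusted p = 6.96e-05) and 88.0% in 5637 (limma adjusted p = 0.00759). KIF2C, a depolymerase that frees wrongly attached microtubules, was likewise lower in both, at 68.2% in 786-O and 88.8% in 5637. KIF11, which pushes the spindle poles apart, was lower in 786-O (77.9%, limma adjusted p = 0.00365) and not called in 5637 (99.0%, limma adjusted p = 0.701). KIF23, a motor of cytokinesis, and CENPE, the kinetochore motor, were called in neither line. CENPE had 1.86, 1.89 and 1.62 FPKM in 786-O shCBX7 libraries, against 1.86, 2.80 and 2.76 FPKM in control libraries, where control library 1 stood at the level of the shCBX7 libraries. Without that library CENPE was called lower (log2 change -0.44, limma adjusted p = 0.00332).

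The spindle and midzone proteins showed 5 of 5 tested members lower in 786-O and 2 of 5 in 5637. TPX2, the activator of aurora A at spindle poles, had 56.1, 55.5 and 55.0 FPKM in 786-O shCBX7 libraries, against 78.0, 86.6 and 81.0 FPKM in control libraries, which left 67.9%. In 5637 TPX2 was left at 92.3% (limma adjusted p = 0.00781), and ANLN, the anillin of the cleavage furrow, at 72.4% in 786-O and 90.2% in 5637. DLGAP5, which bundles spindle fibres at kinetochores, was lower in 786-O (68.6%, limma adjusted p = 0.004) and not called in 5637 (97.9%). HMMR, a hyaluronan receptor that also binds spindle microtubules, was left at 85.8% in 786-O, but its call (limma adjusted p = 0.0331) was lost under 6 other settings, with an adjusted p of up to 0.114. In 5637 HMMR stood at 106.9% of control and was not called (limma adjusted p = 0.0964).

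NUSAP1 and PRC1 bind and bundle spindle microtubules. PRC1 in both lines and NUSAP1 in 5637 were listed far below the other members, NUSAP1 was also low in 786-O, and the levels of both are uncertain. NUSAP1 had 2.55, 2.55 and 3.32 FPKM in 786-O shCBX7 libraries, against 4.63, 5.71 and 6.74 FPKM in control libraries (49.2% left, limma adjusted p = 0.00156), from 122 to 320 reads. In 5637 it had 0.316, 0.119 and 0.192 FPKM in shCBX7 libraries, against 0.363, 0.265 and 0.285 FPKM in control libraries, which was too low to test. PRC1 had 0.549, 0.678 and 0.773 FPKM in 5637 shCBX7 libraries, against 0.732, 0.921 and 0.826 FPKM in control libraries, with overlapping arms and no call (limma adjusted p = 0.168). In 786-O all 6 libraries had 0.228 to 0.390 FPKM of PRC1. In GENCODE release 29, 62.16% of the exonic bases of NUSAP1 (chromosome 15, 41332694 to 41381050, plus strand) also belong to the annotated gene AC087721.2 on the same strand, and 57.57% of those of PRC1 (chromosome 15, 90966038 to 90995629, minus strand) to AC068831.7. In 786-O AC087721.2 was listed at 0 in every library, and AC068831.7 had 0.642 to 0.688 FPKM in shCBX7 and 0.822 to 1.24 FPKM in control libraries. How shared reads were counted is not stated, and the part of this overlap in the low values was not tested.

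The chromosome and centromere proteins were divided, with 2 of 5 lower in 786-O and 2 lower and 1 higher in 5637. TOP2A, topoisomerase II alpha, which untangles sister chromatids, had 22.4, 24.1 and 23.6 FPKM in 786-O shCBX7 libraries, against 46.1, 55.7 and 52.3 FPKM in control libraries. In 5637 it was the most abundant member and had 243, 247 and 242 FPKM in shCBX7 libraries, against 283, 277 and 283 FPKM in control libraries. The arms were apart in both lines, and TOP2A had the lowest share left of the tested members in 786-O, 45.5% (log2 change -1.10, SE 0.073, limma adjusted p = 2.29e-05), against 86.8% in 5637 (log2 change -0.20, SE 0.020, limma adjusted p = 0.000366). MKI67, the proliferation antigen Ki-67 that coats mitotic chromosomes, had 5.76, 5.97 and 6.71 FPKM in 786-O shCBX7 libraries, against 8.30, 10.9 and 9.86 FPKM in control libraries, or 63.4% (limma adjusted p = 0.00211). In 5637 MKI67 had 46.9, 47.3 and 46.4 FPKM in shCBX7 libraries, against 48.0, 47.6 and 48.1 FPKM in control libraries. Those 5637 arms did not overlap, but the difference was small (97.8% left) and not called (limma adjusted p = 0.191).

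CENPF, a large outer kinetochore protein of G2 and mitosis, was the member called higher in a line. In 5637 it had 49.1, 48.2 and 45.8 FPKM in shCBX7 libraries, against 43.9, 43.3 and 44.1 FPKM in control libraries, 108.9% of control with no overlap (log2 change 0.12, SE 0.028, limma adjusted p = 0.0117). In 786-O it had 5.50, 5.98 and 6.38 FPKM in shCBX7 libraries, against 6.20, 7.61 and 7.42 FPKM in control libraries, which overlapped and were not called (limma adjusted p = 0.0691). It was called lower in 786-O with the replicate number as a block (limma adjusted p = 0.0259), with voom on the recovered reads (limma adjusted p = 0.0183) and without control library 1 (log2 change -0.29, limma adjusted p = 0.0118). CENPA, the histone H3 variant that marks the centromere, was not called in 786-O (105.4%, limma adjusted p = 0.251) or in 5637 (97.6%, limma adjusted p = 0.307). BIRC5, survivin of the chromosomal passenger complex, was lower in 5637 (92.8%, limma adjusted p = 0.0105) and not called in 786-O (93.8%, limma adjusted p = 0.197).

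Most members fell further in 786-O than in 5637. The difference between the 2 within-line changes was tested for all 32, and 23 had the larger fall in 786-O, where 29.0% of 12777 genes differed in that direction. AURKB was the 1 member with the larger fall in 5637 (24.3% of all genes), with 786-O minus 5637 at 0.20 (SE 0.049, limma adjusted p = 0.00431). The largest differences were those of PLK1 (-0.90, SE 0.062), TOP2A (-0.89, SE 0.079), CCNB1 (-0.80, SE 0.047) and CCNB2 (-0.79, SE 0.053), with limma adjusted p-values from 9.71e-08 for CCNB1 to 2.52e-06 for TOP2A. For 8 members no difference was called: CDC25B, NEK2, TTK, KIF23, CENPE, PRC1, CENPA and BIRC5. The difference of CDC25B was -0.10 (SE 0.043, limma adjusted p = 0.0809) and that of NEK2 0.09 (SE 0.083, limma adjusted p = 0.404). With 1 library of 786-O left out, 5 of the 8 differences were called. These were NEK2 without shCBX7 library 1 (0.17, limma adjusted p = 0.02), KIF23 without shCBX7 library 2 (-0.16, limma adjusted p = 0.0325) and CDC25B without control library 2 (-0.12, limma adjusted p = 0.0346). Without control library 1 they were CENPE (-0.38, limma adjusted p = 0.000538) and CENPA (0.15, limma adjusted p = 0.00863). CBX7 was also left at a lower share in 786-O than in 5637 (61.0% and 83.3%), and its part in these differences was not tested. Quantile normalization ended the call of a difference for ANLN, CDC25C and CDK1, and a pseudocount of 0.1 ended it for NUSAP1. NUSAP1 in 5637 and PRC1 in 786-O were too low to test within the line. Their differences between lines rest in part on values near the floor.

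**Figure D2:**
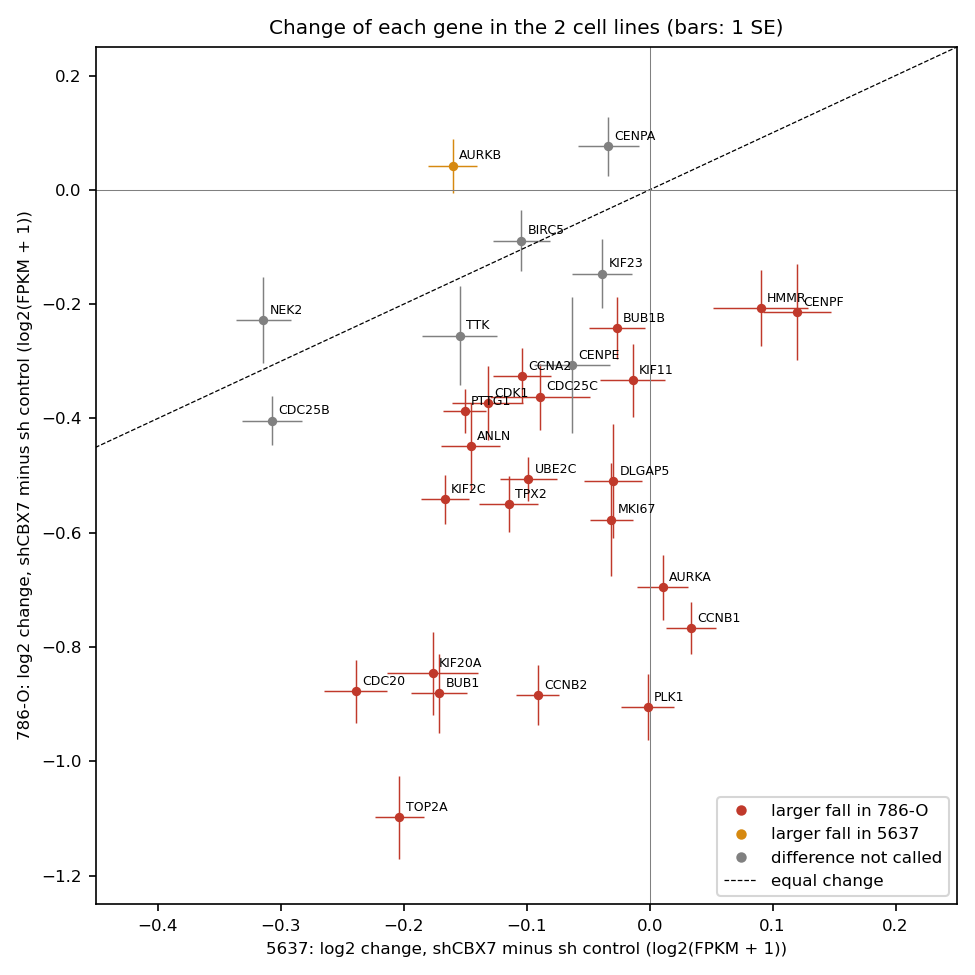
Change of each member tested in both lines (30 genes), as the log2 change in 786-O (vertical) against that in 5637 (horizontal), with bars of 1 SE and a dashed line where both are equal; colours mark the result of the test of the difference. Most red points, the genes with the larger fall in 786-O, lie far below the dashed line, with PLK1 at -0.90 in 786-O and near 0 in 5637, and AURKB in orange lies above it.

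Across the 30 genes tested in both lines, the changes in 786-O and in 5637 correlated weakly (Pearson r = 0.162, Spearman rho = 0.172), which is a description over genes that share their libraries. Of these 30, 15 were lower in both lines, where 6.26% of the 10360 genes tested in both lines were. Another 9 were lower in 786-O and not called in 5637 (15.1% of all genes), and 2 (AURKB and BIRC5) were lower in 5637 and not called in 786-O (8.96%). KIF23, CENPE and CENPA were called in neither. By the first listed window, 6 of the 12 genes lower in both lines that had a listed promoter held both kinds of motif. Of the other 15 members with a listed promoter, 11 did.

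Levels of the members spanned a wide range, and the order was not the same in the lines. In 786-O the highest means were UBE2C with 151.7 FPKM and CDC20 with 139.0 FPKM in shCBX7 libraries, and CDC20 with 256.5 FPKM and UBE2C with 215.9 FPKM in control libraries. In 5637 TOP2A led, with 244.1 FPKM in shCBX7 and 281.2 FPKM in control libraries, followed by UBE2C with 127.7 FPKM in shCBX7 and 136.8 FPKM in control libraries. The order of UBE2C and CDC20 in 786-O was thus reversed after shCBX7, and neither pair of neighbours overlapped between libraries. In 5637 shCBX7 libraries the genes from AURKA to CCNB1 in the order, 50.28 to 46.01 FPKM on average, each overlapped the next.

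**Figure D3:**
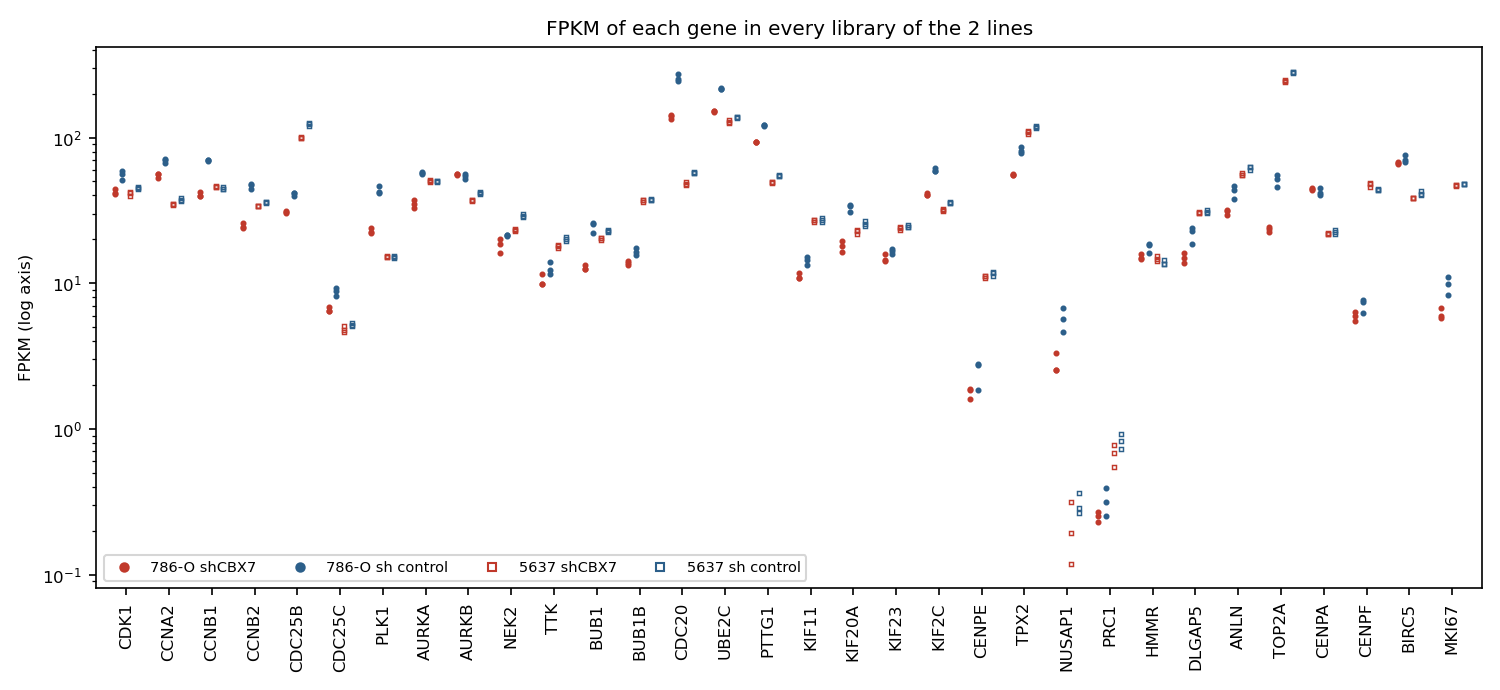
FPKM of every member in each library on a log axis, 786-O as filled circles and 5637 as open squares, shCBX7 in red and sh control in blue; the lines were normalized separately, so heights are compared within a line. Most members lie between 10 and 100 FPKM, with NUSAP1 in 5637 and PRC1 in both lines below 1 FPKM.

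Other genes of the same machinery were taken from 8 lists with 98 genes. In 786-O 53 of the 97 tested were lower and 12 higher, with a median log2 change of -0.23. In 5637 24 of 94 were lower and 23 higher, with a median of 0.01. Over all genes tested, 26.2% were lower and 24.7% higher in 786-O, and 20.2% lower and 24.4% higher in 5637. These shares stand beside each count by role above and by list below. In 5637 the counts of the 8 lists together lay near them.

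**Figure D4:**
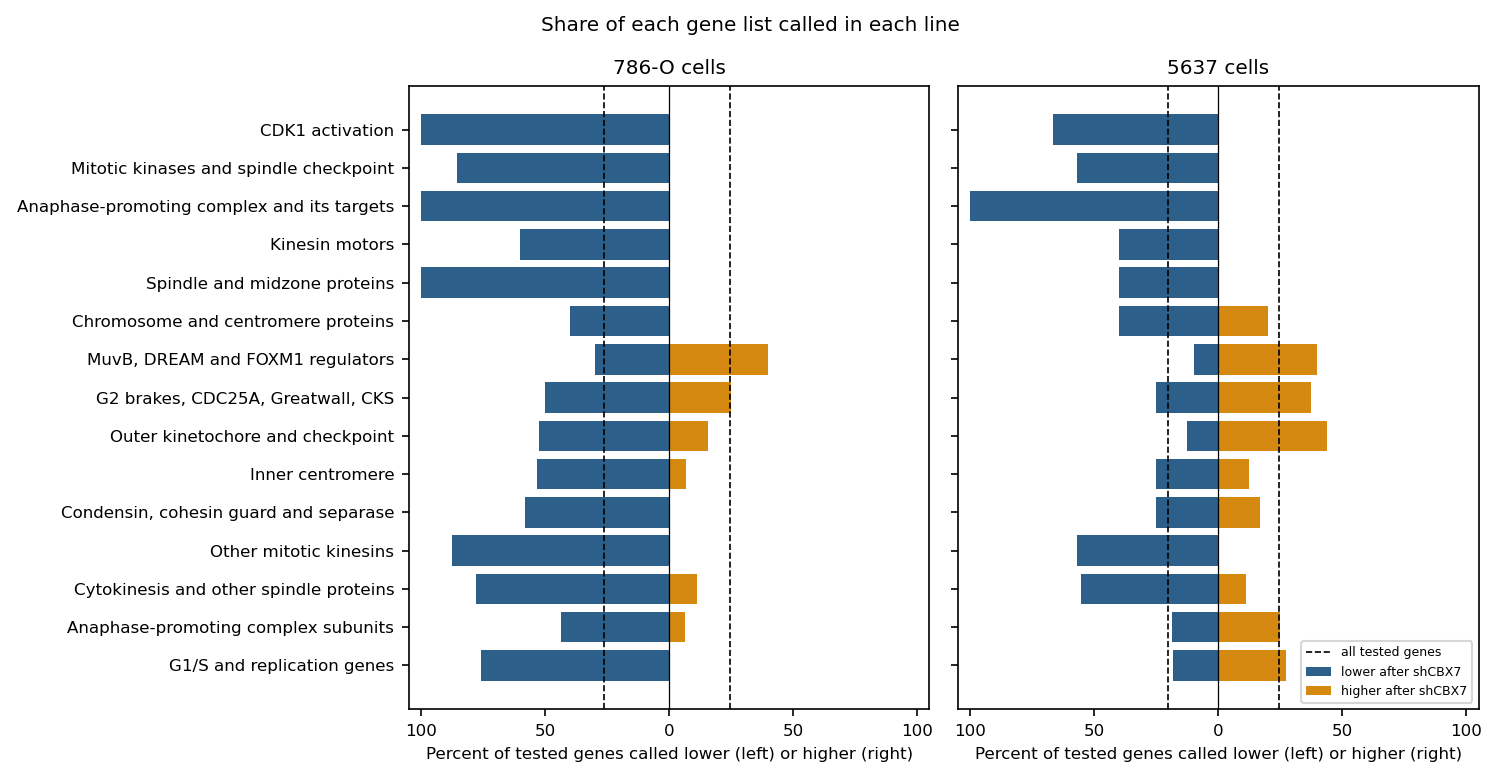
Percent of the tested genes of each list called lower (blue, to the left) or higher (orange, to the right) after shCBX7 in 786-O (left) and 5637 (right), with dashed lines at the percent over all tested genes. In 786-O blue bars pass the dashed line in every list, and in 5637 they pass it in all 6 roles of the 32 members and in 5 of the 8 other mitosis lists.

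Of the regulators that read these promoters, 3 of 10 were lower and 4 higher in 786-O, and in 5637 1 was lower and 4 were higher. MYBL2, which encodes B-MYB, had 157.2, 147.8 and 150.4 FPKM in 786-O shCBX7 libraries, against 103.9, 93.41 and 95.48 FPKM in control libraries (log2 change 0.63, limma adjusted p = 6.68e-05). In 5637 it rose as well, to 89.69 ± 1.66 FPKM in shCBX7, against 78.25 ± 0.504 FPKM in control libraries (SD, n = 3 each, limma adjusted p = 0.000443). FOXM1, the forkhead factor of G2, fell to 11.83 ± 0.549 FPKM in 786-O shCBX7 libraries, against 18.31 ± 0.492 FPKM in control libraries (SD, n = 3 each, limma adjusted p = 7.54e-05). In 5637 FOXM1 was 14.82 ± 0.214 FPKM in shCBX7 and 14.74 ± 0.279 FPKM in control libraries and was not called (limma adjusted p = 0.804). E2F4, a repressor subunit in resting cells, fell in 786-O (67.1% left, limma adjusted p = 0.000116) and rose in 5637 (110%, limma adjusted p = 0.00599), and its partner TFDP1 rose in both.

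Among G2 brakes and Greatwall pathway genes, 4 of 8 were lower and 2 higher in 786-O, and 2 lower and 3 higher in 5637. CKS2, a small subunit bound to CDK1, was lower in both, with 302.3 ± 12.7 FPKM in shCBX7 and 375.9 ± 15.9 FPKM in control libraries of 786-O (SD, n = 3 each). ENSA, endosulfine, which once phosphorylated by Greatwall kinase inhibits a phosphatase that opposes CDK1, rose in 786-O to 29.13 ± 0.719 FPKM, against 19.31 ± 0.536 FPKM in control libraries, and in 5637 to 29.48 ± 0.825 FPKM, against 26.0 ± 0.668 FPKM in control libraries (SD, n = 3 each). PKMYT1, which puts inhibitory phosphates on CDK1, fell in 786-O (75.4%) and rose in 5637 (110%).

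Outer kinetochore genes were lower in 10 of 19 and higher in 3 in 786-O, against 2 of 16 lower and 7 higher in 5637. ZW10, of the complex that brings dynein to kinetochores, rose in both lines. It had 6.502, 6.335 and 5.794 FPKM in 786-O shCBX7 libraries, against 2.843, 3.428 and 3.443 FPKM in control libraries, and 9.464 ± 0.284 FPKM in shCBX7 and 6.517 ± 0.407 FPKM in control libraries of 5637 (SD, n = 3 each). SPDL1, which works beside it, was at 111% of control in 786-O with no call (limma adjusted p = 0.117) and rose to 130% in 5637 (limma adjusted p = 0.000206). ZWINT, their anchor at the kinetochore, fell in 786-O (73.7%) and rose in 5637 (117%). Inner centromere genes were lower in 8 of 15 and higher in 1 in 786-O, and lower in 4 of 16 and higher in 2 in 5637. HJURP, the chaperone that loads CENPA, was lower in both lines, at 76.0% in 786-O and 80.9% in 5637, while CENPA itself was called in neither. CDCA8 and INCENP, partners of AURKB in the passenger complex, fell to 66.1% and 65.2% in 786-O, where AURKB was not called, and in 5637 INCENP fell to 90.6% and CDCA8 was not called (log2 change -0.07, limma adjusted p = 0.0597).

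Condensin, cohesin guard and separase genes were lower in 7 of 12 in 786-O, with 0 higher, and lower in 3 and higher in 2 in 5637. NCAPD2, a condensin subunit, had 19.75, 18.91 and 19.93 FPKM in 786-O shCBX7 libraries, against 38.92, 39.73 and 37.47 FPKM in control libraries, and was left at 50.5%. ESPL1, separase itself, was left at 34.8% in 786-O, with 2.216 ± 0.306 FPKM in shCBX7 and 6.362 ± 0.308 FPKM in control libraries (SD, n = 3 each, limma adjusted p = 2.5e-05), and was at 99.8% in 5637 with no call. In 5637 NCAPD2 and SMC4 were left at 89.6% and 89.1%. SMC2 fell to 70.7% in 786-O (limma adjusted p = 0.00558) and rose to 110% in 5637 (limma adjusted p = 0.0018). Other mitotic kinesins were lower in 7 of 8 in 786-O and 4 of 7 in 5637, with 0 higher in either line. KIF4A, which pairs with PRC1 at the midzone, had 11.2, 11.55 and 10.78 FPKM in 786-O shCBX7 libraries, against 27.86, 32.64 and 31.01 FPKM in control libraries. That left 36.6% of KIF4A in 786-O (log2 change -1.37, SE 0.065, limma adjusted p = 5.69e-06), against 94.9% in 5637 (limma adjusted p = 0.0448).

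Cytokinesis and other spindle genes were lower in 7 of 9 and higher in 1 in 786-O, and lower in 5 and higher in 1 in 5637. RACGAP1, the partner of KIF23 in the centralspindlin complex, was left at 57.0% in 786-O and 87.8% in 5637. SPAG5, astrin of the spindle, was left at 53.4% in 786-O and 86.0% in 5637, and CEP55, an abscission protein, fell in 786-O (71.5%, limma adjusted p = 0.00103) and rose in 5637 (113%, limma adjusted p = 0.00179). Subunits and partners of the anaphase-promoting complex were lower in 7 of 16 and higher in 1 in 786-O, and lower in 3 and higher in 4 in 5637. UBE2S, which extends its ubiquitin chains, fell to 56.3% in 786-O and 87.3% in 5637. CDC16, a scaffold subunit, was at 110% in 786-O with no call (limma adjusted p = 0.132) and fell to 84.2% in 5637. For comparison, genes of the G1/S step and of DNA replication were lower in 25 of 33 and higher in 0 in 786-O (median log2 change -0.43), and lower in 6 and higher in 9 of 33 in 5637 (median 0.02). Thymidine kinase TK1 was left at 33.7% in 786-O and 88.2% in 5637, and the helicase subunit MCM6 was left at 46.5% in 786-O and was at 101% in 5637, with no call there.

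**Figure D5:**
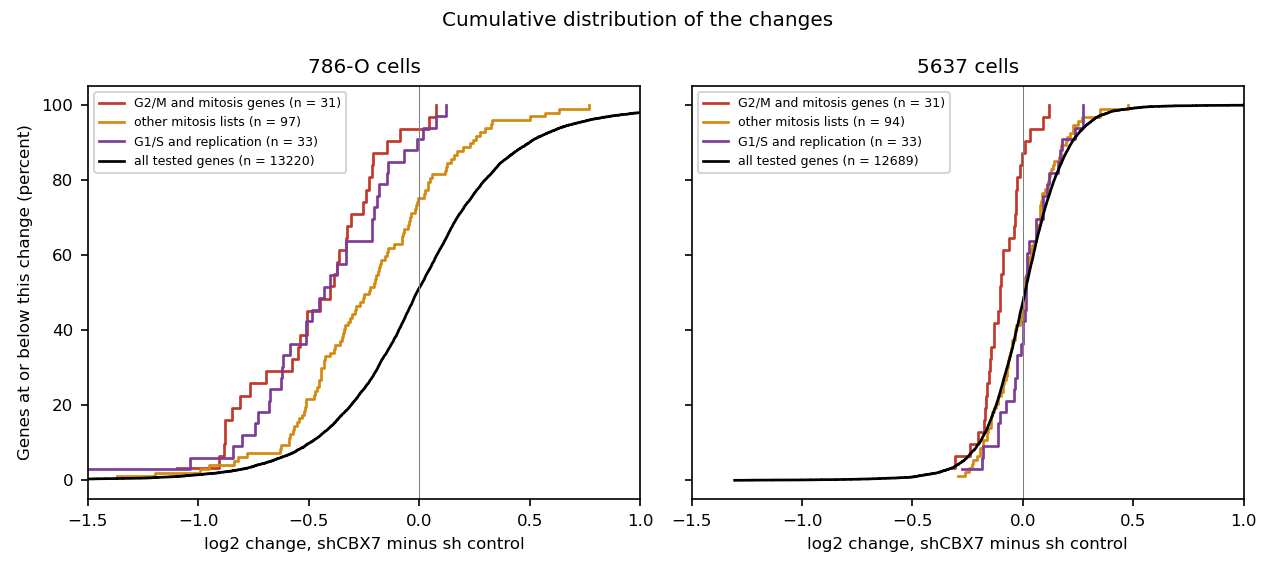
Percent of genes at or below each log2 change (shCBX7 minus sh control), for the 32-gene list (red), the other mitosis lists together (orange), the G1/S and replication list (purple) and all tested genes (black), in 786-O (left) and 5637 (right). In 786-O the red and purple curves run together, with medians of -0.40 and -0.43, and in 5637 the red curve (median -0.10) lies left of the purple and orange ones, which follow all genes.

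The libraries were checked for other differences between the arms. Control library 1 of 786-O stood apart from the other control libraries, with a chi-square per gene of 9.93 and 6.16 against them on recovered reads and 2.93 between those others, and was the lowest of the 3 controls in 18 of the 32 genes. Without it, 27 members were lower and 1 (CENPA) higher in 786-O, where 3419 of 13245 genes were lower and 3315 higher. The median change of the members was then -0.44. CENPE, CENPF and KIF23 were then called lower, and NEK2 was not called. Control library 1 also differed by gene length. Its median log2 deviation from the other control libraries was 0.07 in genes of up to 2493 bases and -0.049 in genes from 6943 bases. For control library 2 these values were -0.061 and 0.035. The part of gene length in the calls was not tested. Markers of the labelled tissues were present: basal urothelial markers summed to 1420 to 1430 FPKM in shCBX7 and 1220 to 1240 FPKM in control libraries of 5637, with 6 of 8 higher and 1 lower, and renal tubule markers to 42.7 to 43.8 FPKM in shCBX7 and 55.8 to 58.0 FPKM in control libraries of 786-O, with 3 of 6 tested lower. The basal list summed to 128 to 129 FPKM in shCBX7 and 58.8 to 62.8 FPKM in control libraries of 786-O, where KRT5 and KRT14 were at 0. Only 1 of its 8 genes reached the minimum mean there, and it was called higher. The tubule list summed to 2.34 to 2.73 FPKM in shCBX7 and 3.11 to 3.31 FPKM in control libraries of 5637, with 1 gene tested and called lower. The part of these marker lists in the mitotic changes was not tested. Leukocyte markers summed to 3.58 to 4.5 FPKM in shCBX7 and 2.18 to 2.4 FPKM in control libraries of 786-O, with PTPRC and CD3E at 0, and to under 2 FPKM in every library of 5637, with CD3E at 0. Endothelial markers were under 0.8 FPKM in sum in every library (CDH5 at 0 in 786-O). Fibroblast markers summed to 3.03 to 3.57 FPKM in shCBX7 and 2.37 to 2.73 FPKM in control libraries of 786-O, and to 17.6 to 18.5 FPKM in shCBX7 and 19.7 to 19.9 FPKM in control libraries of 5637.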

How the data were processed

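Each of the 12 libraries was placed in its group, 3 per group, by its title, cell line and genotype labels. RNA was purified on columns and a directional kit (NEBNext Ultra) made the libraries, per the labels' protocols. For each line the authors deposited a table of FPKM, with a value for each gene in each library. No source used here names the aligner, counter or strand setting. The submitters' processing notes name mm10, a mouse build, for these human cells. In position, the 58735 identifiers of 786-O all match GENCODE release 29 (GRCh38), whereas 5637 is listed by symbol. The control columns of 5637 could be tied to their group but to no single sample.

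Reads were recovered from the FPKM steps (tolerance 0.01), whole for all 58735 genes in 786-O and for 28083 of 29890 (94.0%) in 5637, where lengths came from the other table. They gave the depth and a voom alternative. No 2 libraries were identical or agreed within sampling noise.

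The limma test (3.58.1, R 4.3.3, eBayes with trend) was run on log2(FPKM + 1) within each line, shCBX7 minus sh control, for genes whose mean reached 0.5 FPKM. Benjamini-Hochberg adjustment covered all genes tested, and calls were made under 0.05. To compare the lines, 29809 symbols were matched, those with a mean of 0.5 FPKM over 12 libraries were kept, and the interaction of line and arm was tested, which compares changes made within each table. The within-line test was tried on simulated reads, with the same dispersion for all genes of a line. Few genes were changed there, at 1.25-fold 46 of 12663 in 786-O and 48 of 11388 in 5637. It recovered 21.7% of 1.25-fold changes in 786-O and 77.1% in 5637, and 97.6% and 100% of 2-fold changes. Of its calls, 6.02% were false in 786-O and 5.23% in 5637. In the simulation a small change was thus more easily missed in 786-O than in 5637. In the data 51.0% of genes were called in 786-O and 44.5% in 5637, so these shares do not give the recovery there.

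The members and lists were chosen with earlier results of these data known. All 32 members are named, and in the other lists up to 4 called genes with the smallest p per line. The values of some single marker genes are not reported here. FOXM1 was not among those called genes in 5637 and was named there after its values were seen. Other genes named by 1 line are also given in the other line without being among its 4. These include ESPL1, MCM6, CDCA8 and UBE2S in 5637, and SPDL1, SMC2, CEP55 and CDC16 in 786-O. Alternatives were a pseudocount of 0.1, no filter, a filter at 1 FPKM, quantile normalization, median centring, no trend, voom, a replicate block and each library left out.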

Additional observations from a re-analysis of the deposited data

Results flagged for a closer look

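The change after shCBX7 differed between the lines, by limma's interaction term, in 24 of the 32 genes. Over all 12777 genes tested, 29.0% had a negative difference called and 24.3% a positive one. As 786-O change minus 5637 change on the log2 scale, the difference was -0.90 for PLK1, -0.89 for TOP2A, -0.80 for CCNB1, -0.79 for CCNB2, -0.71 for BUB1, -0.71 for AURKA, -0.70 for NUSAP1, -0.67 for KIF20A and -0.64 for CDC20. It was -0.55 for MKI67, -0.48 for DLGAP5, -0.44 for TPX2, -0.41 for UBE2C, -0.38 for KIF2C, -0.33 for CENPF, -0.32 for KIF11, -0.30 for ANLN and -0.30 for HMMR. Smaller differences were found for CDC25C (-0.27), CDK1 (-0.24), PTTG1 (-0.24), CCNA2 (-0.22) and BUB1B (-0.22). AURKB differed in the other direction (0.20). The limma adjusted p-values ran from 9.71e-08 for CCNB1 to 0.0158 for CDK1. The difference of NUSAP1 leans on 5637 values of 0.119 to 0.363 FPKM, too low to test within that line. On the log2(FPKM + 1) scale such values can change little. With a pseudocount of 0.1 the NUSAP1 difference was -0.56 and not called (limma adjusted p = 0.157).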

How the results depend on the processing

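The number of members lower in 786-O ran from 22 (no filter, or without shCBX7 library 1, control library 2 or control library 3) to 27 (voom, or without control library 1), and the number lower in 5637 from 17 to 18. Over all genes tested in 786-O, 3014 of 27777 were lower with no filter and 3810 of 14459 with voom. With libraries left out these were 3010 of 13226 (shCBX7 library 1), 3419 of 13245 (control library 1), 3176 of 13234 (control library 2) and 2914 of 13233 (control library 3). In 5637 the number of all genes lower ran from 2103 of 12673 (without control library 3) to 2885 of 12689 (median centring). Members higher in 786-O numbered 0 to 1 and members higher in 5637 1 to 2 when each library was left out, the added genes being CENPA without 786-O control library 1 and HMMR without 5637 control library 1. Without those libraries 3315 of 13245 genes were called higher in 786-O and 2671 of 12688 in 5637. The number with a difference between lines ran from 21 (quantile normalization) to 26. Over all genes, 6735 of 12777 differed with quantile normalization and 7126 of 12821 without 786-O control library 1. CBX7 in 5637 changed by -0.20 to -0.14 when libraries were left out. The calls of HMMR, NEK2 and TTK in 786-O were lost under 6, 8 and 7 settings. With quantile normalization the difference of ANLN, CDC25C and CDK1 had a limma adjusted p of 0.0722, 0.0531 and 0.107, and with a pseudocount of 0.1 that of NUSAP1 had 0.157. The cause was not tested.

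Values near 0 changed sign. AURKA in 5637 was -0.0036 after median centring. With a library left out, AURKA in 5637 ran from -0.00372 to 0.0238, KIF11 in 5637 from -0.0323 to 0.00343 and PLK1 in 5637 from -0.015 to 0.00727. The difference of TTK was 2.93e-05 and that of BIRC5 -0.0452 with quantile normalization, and that of BIRC5 ran from -0.0218 to 0.0618 with a library left out.

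In 786-O, deviations of same-numbered libraries correlated at 0.083, 0.077 and 0.057. Each was the best of its library but under 0.1. The labels do not say that replicate numbers pair the arms, so the main fit had no block. Whether they do is not settled by these values. With the replicate number as a block 26 members were lower and 0 higher in 786-O, the added gene being CENPF (limma adjusted p = 0.0259), and CBX7 changed by -0.40 (limma adjusted p = 0.0139). Of 13220 genes in that fit, 3462 were lower and 3261 higher. No paired analysis was possible in 5637 because its control columns carry no number tied to a sample.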
